A study of Drosophila melanogaster with 2 samples.

Results

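The 7 genes described here make, store, split or move the glycogen and trehalose of the fly: Glyp, GlyS, UGP, AGBE, Tps1, Treh and Tret1-1. They are 7 of 13945 protein-coding genes annotated on the main chromosome arms, matched by symbol without regard to case (GlyS is written Glys in the annotation). The set was selected on the metabolic role of its genes with the peaks of these same lists already known, so the signals and ranks below are descriptions and carry no test. Chromatin immunoprecipitation with sequencing was used to find where the protein CG12768 lies on the DNA of whole adult male *Drosophila melanogaster* of unknown age. The flies belong to 1 transgenic line in which CG12768 carries GFP at the C-terminal end, and DNA sheared by sonication to 200-800 bp was recovered through the tag with anti-GFP. There were 2 biological replicates of this 1 group. The labels do not name the promoter of the transgene, and a whole fly mixes fat body, muscle, gut, testis and every other tissue, so that a peak cannot be placed in any of them. No mock immunoprecipitation was analysed here, so places pulled down in flies without the tag could not be taken out.

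Glycogen and trehalose are the sugar stores that flies draw on between meals and in flight. Glycogen, a branched glucose polymer, is kept in fat body and muscle, while trehalose, a disaccharide of glucose, is the main sugar of the hemolymph. Both are built from UDP-glucose, so synthesis of one competes with the other for the same precursor, and both are taken apart when glucose is needed.

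Of the 7 genes, 5 had a summit of the authors' thresholded list within 500 bp of an annotated start: Glyp, GlyS, AGBE, Treh and Tret1-1. Among all protein-coding genes the share was 25.9%, and nothing is read from the difference, since the genes were chosen with these peaks in view. UGP and Tps1 had no such summit. In the pooled list of 30000 peaks, which keeps background by design, all 7 genes had a promoter summit, against 55.8% of all genes. The same held in the list of each replicate, where all 7 again had one, against 52.7% of all genes in replicate 1 and 55.1% in replicate 2. The strongest promoter summit of the 7 genes had a pooled signal from 126.1 to 1789.4 with a median of 440.6. Over the 7781 genes with a promoter summit in that list the median was 130.3. Signal here is the value of the authors' peak caller and serves only to order and describe peaks within a list, and rank 1 is the highest signal.

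**Figure D1:**
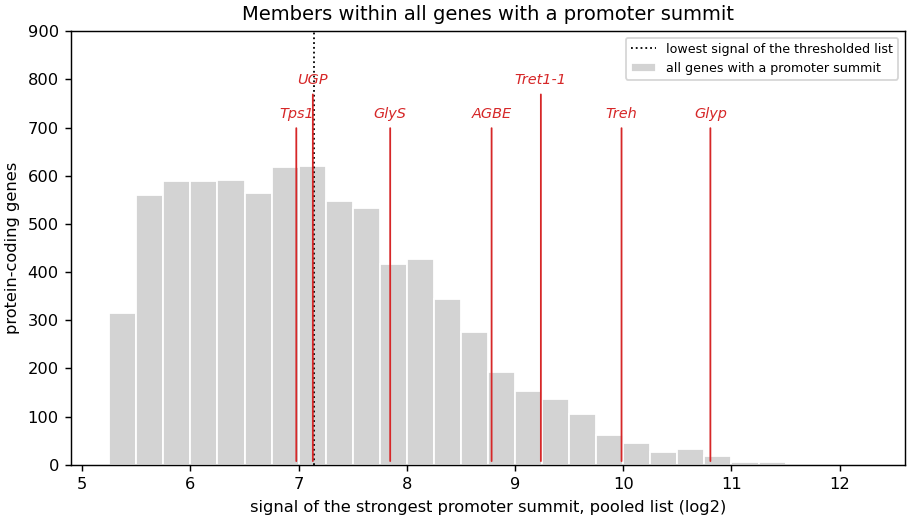
The grey bars count the protein-coding genes (vertical axis) by the signal of their strongest promoter summit in the pooled list (horizontal axis, log2). The red lines mark the 7 genes: Glyp lies near the upper end, at a signal of 1789.4, and UGP (140.2) and Tps1 (126.1) lie just below the dotted line at 141.3, the lowest signal of the thresholded list.

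Glyp encodes glycogen phosphorylase, the enzyme that releases glucose phosphate units from glycogen. Its single start (FBgn0004507, chr2L:2130813-2137296, plus strand) had the strongest peak of the set, 505 bp wide, with a summit at -163 bp, outside the transcribed gene. The peak had a signal of 828.7 and rank 30 in replicate 1, a signal of 963.9 and rank 47 in replicate 2, and a signal of 1789.4 and rank 36 in the pooled list. The replicates thus placed it at almost the same height in their own lists, and their summits lay 15 bp apart. Among genes with a thresholded promoter summit, Glyp stood in place 31 of 3613. The nearest start of another gene was that of CG4259, and the summit lay at -1413 bp from it, outside its promoter window. The 200 bp around the summit, read from the RefSeq genome of build dm6 as are all sequences here, are shown because they hold the strongest signal of the set; capitals mark a match to the forkhead word GTAAACA, read on the opposite strand, centred 90 bp from the summit.
Glyp, chr2L:2130550-2130749, plus strand: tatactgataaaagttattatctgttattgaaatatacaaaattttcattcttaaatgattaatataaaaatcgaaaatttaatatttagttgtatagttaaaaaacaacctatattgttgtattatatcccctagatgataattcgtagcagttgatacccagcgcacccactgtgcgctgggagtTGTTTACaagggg
The window was 29% G and C, below the lower quartile of 34% over all 3362 thresholded promoter peaks, whose median was 40.5%. GTAAACA on either strand occurred in 7.23% of those windows, and a match describes the letters only.

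Within the Glyp gene the thresholded list held no summit. The pooled list held 5, of which 4 were intronic and 1 in a coding exon. The strongest, at 1143 bp in an intron, had a signal of 131.8 and rank 6672 in the pooled list, with ranks 7771 in replicate 1 and 6743 in replicate 2. Of the 5 summits, 2 had a summit of both replicates within 100 bp.

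GlyS encodes glycogen synthase, which adds glucose from UDP-glucose to the growing polymer. The gene (FBgn0266064, chr3R:15141843-15147531, minus strand) has 4 annotated starts spread over 2060 bp, and the thresholded list held a peak at each end of that span. The first peak had its summit at 63 bp from the first start, in an intron, with a signal of 230.1 and rank 2881. The second start lies 132 bp from the first, and this summit falls between them. The other peak lay at -199 bp from the fourth start and 1861 bp from the first, also in an intron, with a signal of 223.4 and rank 3012. The pooled signals were thus nearly equal, but the replicates ordered the pair in opposite ways. At the first peak the rank was 1566 in replicate 1 and 5782 in replicate 2. The summit of replicate 1 there was nearest to the second start, at -55 bp. At the fourth start the rank was 5400 in replicate 1 and 2103 in replicate 2. With 1 value per replicate, which of the 2 peaks carries the higher signal cannot be told. Genes with 2 or more thresholded promoter summits made up 4.68% of all genes, and GlyS and Treh were the 2 members among them.

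The 60 bp at both GlyS summits are shown to let the pair be compared, in the direction of transcription. Of the first window 23 bases are annotated as untranslated leader of the gene, and of the second none.
GlyS at the first start, chr3R:15147438-15147497, minus strand: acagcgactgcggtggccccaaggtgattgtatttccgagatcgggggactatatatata
GlyS at the fourth start, chr3R:15145640-15145699, minus strand: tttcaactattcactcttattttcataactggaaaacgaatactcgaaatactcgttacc
The 200 bp around them were 43.5% and 35.5% G and C. Neither 60 bp stretch held any of the 9 words searched. The wider window at the first start held 1 ACACAC, a word present in 17.7% of all thresholded promoter windows.

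UGP encodes the enzyme that makes UDP-glucose, the precursor of both stores. Its 2 starts (FBgn0035978, chr3L:9350867-9358935, minus strand) lie 1052 bp apart, and neither had a thresholded summit. The strongest pooled summit, at -39 bp from the second start, had a signal of 140.2 and rank 6131, against 141.3 and rank 6066 for the weakest peak of the thresholded list. The replicates stood far apart at this place. The peak had a signal of 120.6 and rank 3215 in replicate 1, while the summit of replicate 2 within 100 bp had a signal of 27.5 and rank 22631. The strongest promoter summit of replicate 2 lay instead in a coding exon, 258 bp downstream of the second start, at rank 7902. A further pooled summit at -238 bp from the second start had a signal of 61.2. The first start of UGP faces that of Svip on the other strand, 64 bp away. Between and around these starts the pooled list held 1 summit, at 157 bp from the UGP start and -221 bp from that of Svip, with a signal of 66.8 and rank 15807.

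UGP thus missed the list, which is drawn from the pooled peaks, by a narrow margin. Its strongest pooled summit had rank 3215 in replicate 1 and 22631 in replicate 2, where another promoter summit of UGP had rank 7902. The 60 bp at the strongest pooled summit are given as the sequence nearest the threshold, and no word was found there. The 200 bp around that summit held 1 each of TGACG (present in 18.4% of thresholded promoter windows), the CA repeat word ACACAC (17.7%) and the repeat GCNGCNGC (8.39%).
UGP at the second start, chr3L:9357892-9357951, minus strand: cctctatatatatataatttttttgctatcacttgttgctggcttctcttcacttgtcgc
Tps1, the other member outside the thresholded list, encodes trehalose phosphate synthase, which joins UDP-glucose to glucose phosphate. Its single start (FBgn0027560, chr2L:4388327-4392778, plus strand) had a pooled summit at -44 bp with a signal of 126.1 and rank 7097.
Tps1, chr2L:4388253-4388312, plus strand: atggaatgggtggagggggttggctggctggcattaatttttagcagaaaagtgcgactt
The 200 bp around it held GAGAG 3 times, a word found in 30% of thresholded promoter windows, and were 53.5% G and C. In replicate 1 the summit lay at -4 bp with rank 7355, and in replicate 2 it lay at 20 bp with rank 13386. Both replicates therefore had a peak at the start of Tps1, at a rank beyond 6066 in each.

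The bodies of UGP and Tps1 held no thresholded summit either. UGP had 5 pooled summits in its body more than 500 bp from its starts, all intronic, with signals from 41.4 to 95.5, and 2 of them had a summit of both replicates within 100 bp. Tps1 had 2, with signals of 83.6 in an intron and 43.2 in a coding exon. The thresholded peaks closest to UGP belong to its neighbours. PGRP-LF, which encodes a membrane protein of immune recognition and overlaps the 3′ end of UGP on the opposite strand, had 1 at its own start with a signal of 436.1 and rank 903. Pdxk had 1 at 331 bp from its start with a signal of 160.3.

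AGBE encodes the glycogen branching enzyme, which moves short glucose chains to side positions. Its single start (FBgn0053138, chr2R:13171401-13174796, plus strand) had a thresholded peak of 276 bp with its summit at -95 bp, a signal of 440.6 and rank 883. The signal was 303.9 at rank 492 in replicate 1 and 139.1 at rank 2116 in replicate 2, with summits 16 bp apart. A weaker summit at 106 bp, in the leader of the transcript, was in the pooled list (94.7, rank 10237) and in both replicates (ranks 17899 and 21338). The window at the main summit held CAGCTG 2 times, a word present in 12.7% of all thresholded promoter windows, and GTAAACA 1 time.

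Treh encodes trehalase, which splits trehalose into glucose. It is the longest gene of the set (FBgn0003748, chr2R:21074018-21088945, plus strand) and has 6 starts over 10317 bp. The thresholded list held 3 promoter summits there. Of the 3613 genes with any, 121 (3.35%) had 3 or more, and of the 92 genes with 6 or more starts, 27 (29.3%) did. The strongest lay at 298 bp from the second start, in an intron, with a signal of 1012.8 and rank 135. It had rank 57 in replicate 1 and rank 505 in replicate 2, with summits 5 bp apart. The next, at -118 bp from the sixth start, had a signal of 428.1 and rank 937, with ranks 565 in replicate 1 and 2149 in replicate 2. The third, at -429 bp from the first start, had a signal of 219.3 and rank 3105, with ranks 1773 in replicate 1 and 3861 in replicate 2.

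Among the thresholded summits of the members, the one at -429 bp lay nearest to the 500 bp limit on its inner side. The thresholded summit nearest to that limit on its outer side lay at -636 bp from the same start. The summit at -636 bp had a signal of 484.2 and rank 735 and was matched at ranks 804 in replicate 1 and 959 in replicate 2. A further summit at -836 bp (signal 558.6, rank 572) had a counterpart within 100 bp in replicate 2, at rank 515, and none in replicate 1. Each of these 3 peaks overlaps the next, so that 1 broad region and 3 sites cannot be told apart. The farthest of them lies within 500 bp of the start of CG10527, at -393 bp from it on the other strand. In the body of Treh 1 more thresholded summit lay in an intron, at -1055 bp from the fifth start, with a signal of 190.7 and ranks of 4187 in replicate 1 and 4270 in replicate 2. The starts in between had weaker summits outside the thresholded list, with pooled signals of 91.3 at 113 bp from the fifth start and 66.5 at 337 bp from the fourth. The third start had no pooled summit within 500 bp that was nearer to it than to another start of the gene.

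**Figure D2:**
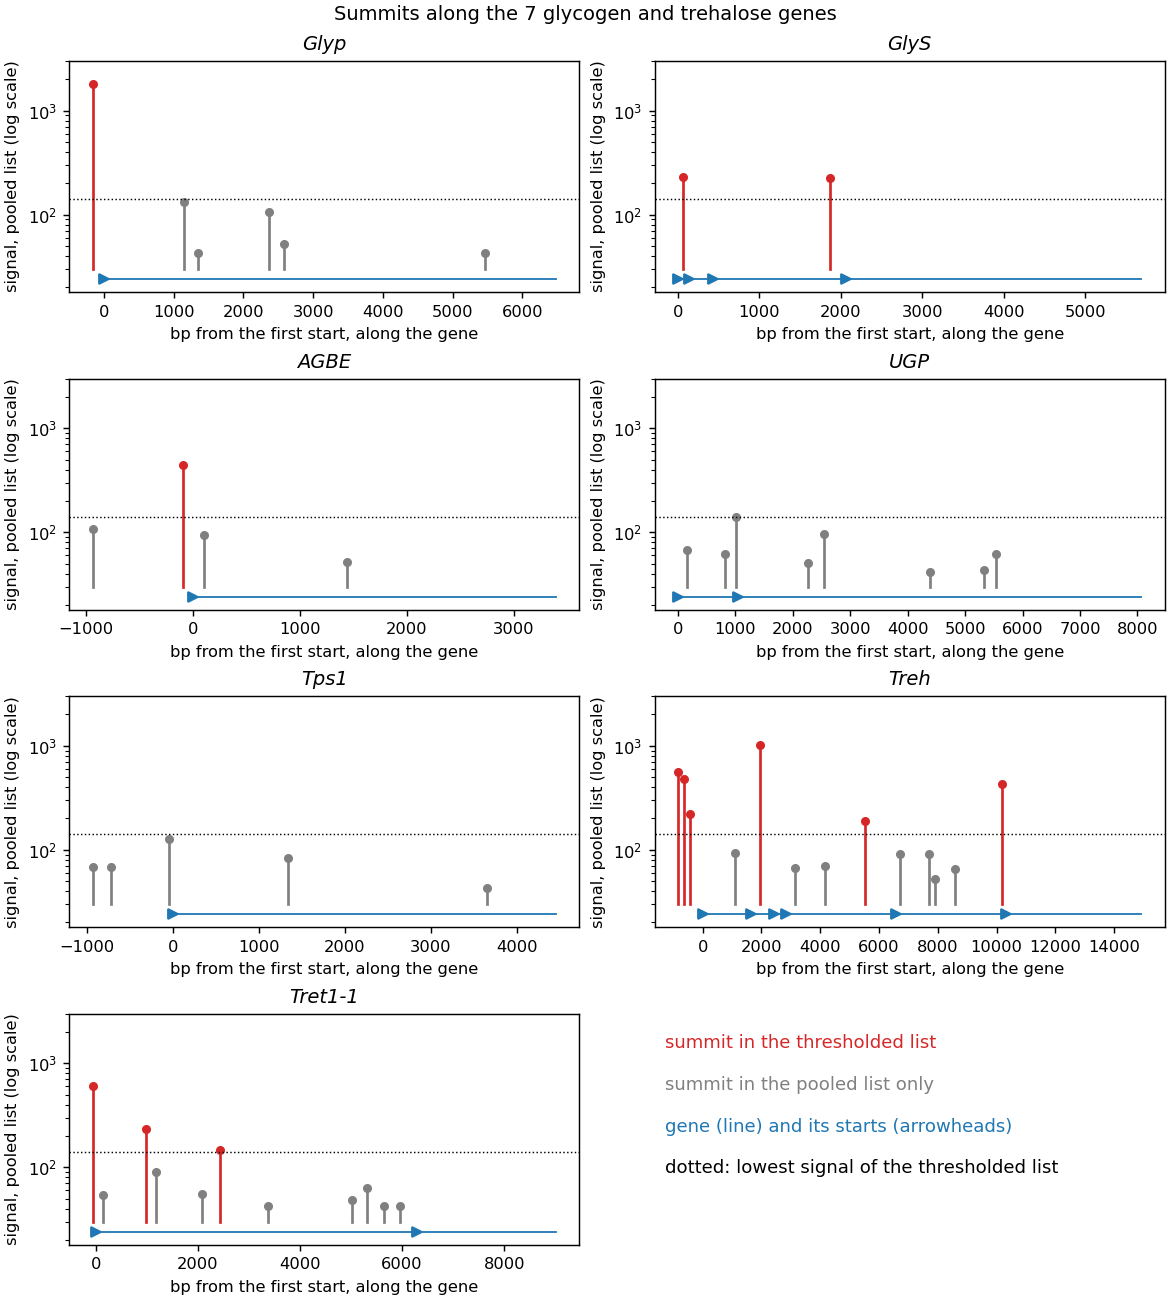
Each panel plots the summits of the pooled list along 1 gene and the 1000 bp before it, by distance from the first start (horizontal axis, bp) and signal (vertical axis, log scale). Red summits are also in the thresholded list, grey ones are not, blue arrowheads mark annotated starts and the dotted line is at 141.3: Glyp has 1 red summit before its start, GlyS has 2 inside the span of its starts, Treh has 6 and UGP and Tps1 have none.

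Tret1-1 encodes a facilitated transporter that carries trehalose across the cell membrane. The gene (FBgn0050035, chr2R:11665768-11674782, plus strand) has 2 starts 6288 bp apart and lies inside Roc2, which runs on the opposite strand. Only the first start had a thresholded summit, at -63 bp, with a signal of 604.1 and rank 484. The signal was 437.6 at rank 198 in replicate 1 and 176.0 at rank 1487 in replicate 2. At the second start the pooled list held 1 weak summit, at -322 bp, with a signal of 42.3 and rank 28872. The window at the first start held GAGAG 6 times, counting overlapping matches. Treh had 4 such matches at its strongest summit, and Glyp, GlyS and AGBE had none. The DNA replication-related element TATCGATA (4.55% of all thresholded promoter windows), the word GGTCACAC (2.83%) and the E-box CACGTG (3.03%) occurred in no member window searched. Those windows lay at the 8 thresholded promoter summits of the members and at the strongest pooled promoter summit of UGP and of Tps1. Weaker pooled promoter summits were not searched. The absence says only that these letters are not in these 200 bp windows.

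The body of Tret1-1 held 2 thresholded summits in introns, at 980 bp from the first start (signal 232.6, rank 2838) and at 2432 bp (146.7, rank 5739). In replicate 1 they had ranks 1672 and 4376, and in replicate 2 they had ranks 7247 and 8658. Treh and Tret1-1 were the 2 members with a thresholded summit in the gene body beyond 500 bp of their starts, against 9.41% of all genes. They are also the 2 longest members, at 14928 and 9015 bp, and the share over all genes was not split by length. The pooled list held 27 body summits beyond 500 bp of the starts over the 7 genes. Of these, 3 were in the thresholded list and 11 had a summit of both replicates within 100 bp. Of the 17 promoter summits of the 7 genes in the pooled list, 8 were in the thresholded list and 14 had a counterpart in both replicates. The same shares over the summits of all genes were not computed, so nothing is read from these counts. The thresholded list holds 6066 of the 30000 pooled peaks. Tret1-2, the neighbouring paralog of Tret1-1, had no promoter summit in the pooled list. A thresholded peak with a signal of 144.9 lay between the genes, 9225 bp from the first start of Tret1-1.

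**Figure D3:**
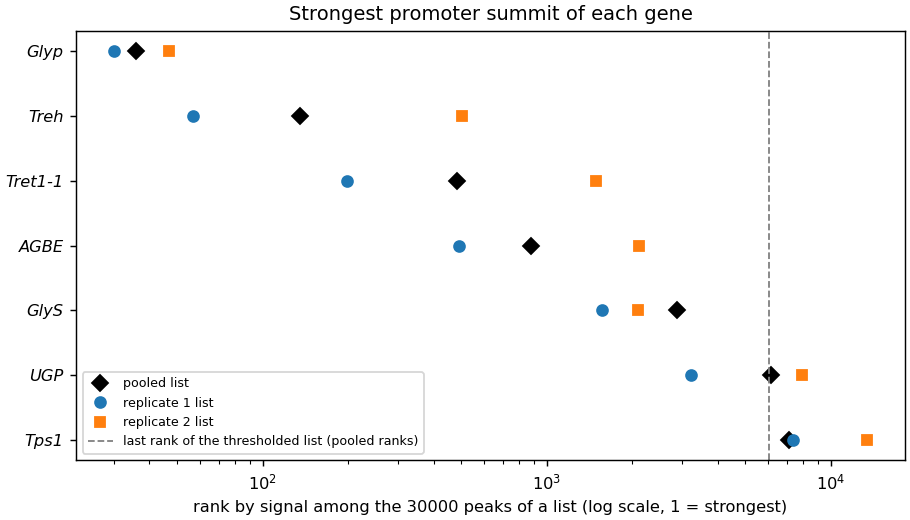
The horizontal axis (log scale) gives the rank of the strongest promoter summit of each gene among the 30000 peaks of the pooled list (diamonds), replicate 1 (circles) and replicate 2 (squares), and the genes run down the page by pooled rank. The dashed line is at rank 6066, the last pooled rank in the thresholded list. Replicate 1 ranks every gene higher than replicate 2 does, and the strongest summit of GlyS and of UGP is a different one in each replicate.

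The 8 thresholded promoter peaks of the 5 genes are described next beside all others, with nothing read from the differences. None of them lay within 500 bp of the start of another gene, while 1002 of all 3362 thresholded promoter peaks (29.8%) did so for at least 2 genes. Of the 8 peaks, 6 lay upstream of the nearest start of their gene, with a median position of -106.5 bp, and 65.8% of all thresholded promoter peaks lay upstream, with a median of -54 bp. In width, 5 of the 8 were narrower than 444 bp, the median of the list, against 27.2% of all; 2380 of the 3362 were exactly 444 bp wide. In the replicates, 7 of the 8 ranked higher in replicate 1, the peak at the fourth start of GlyS being the exception, against 45.4% of the 2856 thresholded promoter peaks matched in both. The depth of either library is unknown, and its part in these ranks was not tested. The 3 peaks of Treh and the 2 of GlyS come from the same genes, so the 8 are not independent.

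The share of genes called was also higher among genes with more annotated starts. Why it was higher was not tested, and other traits of such genes were not separated. Of genes with 1 start, such as Glyp, AGBE and Tps1, 19.6% had a thresholded promoter summit. The share was 37.2% of genes with 2 starts, such as UGP and Tret1-1, 66.4% of genes with 4, such as GlyS, 68.4% of genes with 5, and 76.1% of the 92 genes with 6 or more, such as Treh. Glyp and AGBE thus belong to the class called least often and Treh to the class called most often.

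Genes with ranks most like those of the members were found by the distance of log2 ranks in the pooled list and both replicates, over 3123 genes with a thresholded promoter peak matched in both replicates. Glyp was closest to CG11309, which had ranks 34, 37 and 38 in the pooled list, replicate 1 and replicate 2. GlyS was closest to Timp, AGBE to Mfe2 and Tret1-1 to CG11791. Treh was closest to sug, which encodes a zinc finger protein induced by dietary sugar, with ranks 173, 70 and 499 in the same order. These are likenesses of rank over 3 lists, of which the pooled one is made from the other two.

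Other genes of sugar storage and use were read in the same way from 5 lists of 40 symbols, 39 of which matched. Of these 39 genes 18 had a thresholded promoter summit. Glycogen genes and their regulators had 7 of 12. They were led by Gyg, the glycogenin that primes glycogen (signal 685.5, rank 367), Gbs-70E, a subunit that targets protein phosphatase to glycogen (548.7), and sgg, the fly glycogen synthase kinase (430.7). The debranching enzyme gene CG9485 was not among them, with a pooled summit at -2 bp of signal 104.6. UDP-sugar and galactose genes had 4 of 5, led by sgl, which encodes UDP-glucose dehydrogenase (329.5), Galt (247.8) and Galk (207.1).

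Hexose phosphate genes had 3 of 7: Hex-A, a hexokinase (980.9, rank 146), Pgm1, a phosphoglucomutase that links glucose phosphate from glycogen to glycolysis (620.9), and Pgm2a (363.5). The testis hexokinase genes Hex-t1 and Hex-t2 had no promoter summit in the pooled list. Hormone and sugar-sensing genes had 3 of 6, among them sug (914.9, rank 173), foxo (248.3) and bigmax (187.0). Akh, the adipokinetic hormone that mobilises both stores, had no promoter summit in the pooled list. The list of trehalose phosphatases, other trehalase-like genes and sugar transporters had 1 of 9, sut1 (276.5). The trehalose phosphatase genes CG5171 and CG5177 had pooled signals of 117.3 and 52.4. These counts stand beside 25.9% of all genes and are descriptions of lists drawn up with earlier results of these data known.

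**Figure D4:**
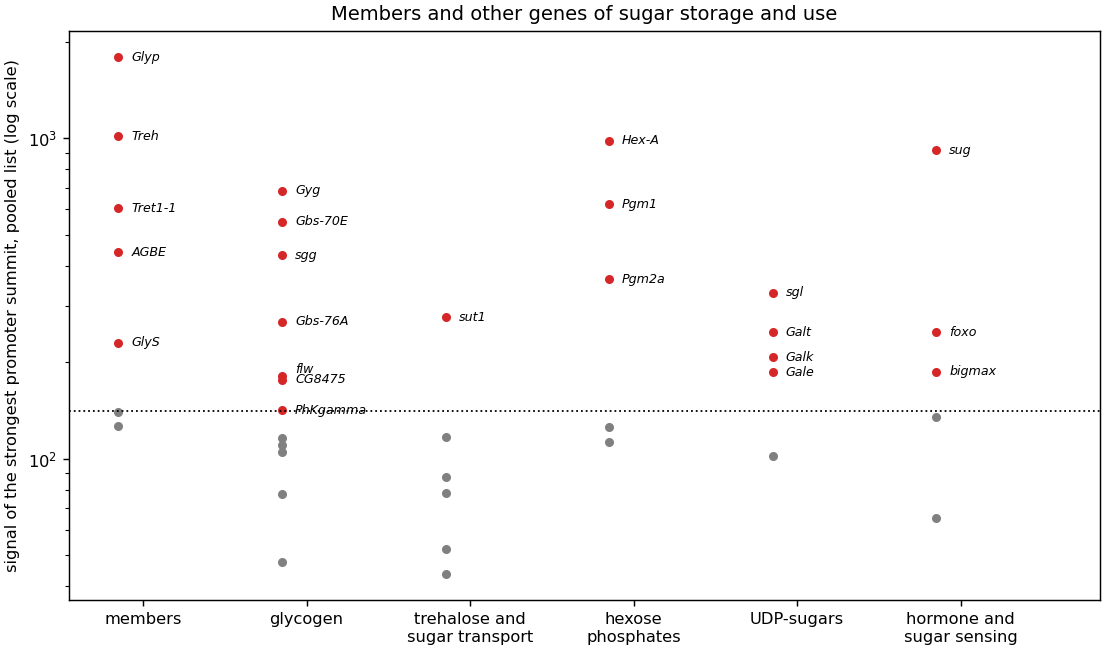
The vertical axis (log scale) gives the signal of the strongest promoter summit in the pooled list for the 7 members and for the other genes of the 5 lists that have one. Named red points are in the thresholded list and grey points lie below the dotted line at 141.3, the lowest signal of that list: the trehalose and transport column has 1 red point and the glycogen column has 7.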

How the data were processed

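Per the labels, DNA was recovered with an antibody against GFP from 2 biological replicates of whole male flies. The labels name a possible control experiment, which was not analysed here. Aligner, caller, versions and the threshold of the irreproducible discovery rate (IDR) were not given in the sources used here. For dm6 the authors deposited 30000 peaks per replicate, 30000 pooled peaks and 6066 thresholded peaks, each with a signal value of unstated scaling and the −log10 of a q-value. All 6066 thresholded peaks are the 6066 highest signals of the pooled list, and 4776 share its top −log10 q-value. No read counts are given, so depth is unknown. The dm3 lists were not used.

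Summits were set against Ensembl release 115 starts of protein-coding transcripts and dm6 bases from RefSeq, in which every peak ends within its arm (Python 3.11.15, matplotlib 3.10.9). Promoter means within 500 bp of a start, and summits within 100 bp match. Words were searched on both strands in 200 bp windows: the replication-related element TATCGATA, motif core GGTCACAC, GAGA word GAGAG, E-box CACGTG, E-box CAGCTG, cyclic AMP word TGACG, repeat word ACACAC, forkhead word GTAAACA and repeat word GCNGCNGC, with overlapping matches counted. The assignment of summits to promoters was checked on simulated peaks. No statistical test was made on the deposited data. Members and lists were chosen with earlier results of these data known. Named genes are the 7 members, genes sharing their summits, the leading 3 of each list and the nearest in rank; CG10527, CG4259, PGRP-LF, Pdxk, Svip, Roc2, Tret1-2, CG9485, CG5171, CG5177, Hex-t1, Hex-t2 and Akh were named after their values were seen. Sequences of some arms are not printed here.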

Additional observations from a re-analysis of the deposited data

How the results depend on the processing

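The count of 5 of the 7 genes with a thresholded promoter summit, and the same 5 genes, held at 250 bp, at 1000 bp, in the 3033 peaks of highest signal, with any base of a peak counted, with a summit counted for 1 gene, that of the closest start, and with the most upstream start alone. In those 3033 peaks GlyS was kept by summits of rank 2881 and 3012. Using 1 replicate's 6066 leading peaks, the count ranged from 5 without replicate 1 to 6 without replicate 2, where UGP was added at rank 3215. The share of all genes, 25.9% as reported, was 22.9% without replicate 2 and 27.9% without replicate 1. It was 15.4% in the 3033 strongest peaks, a shorter list by construction, and ranged from 20.5% (closest start) to 29.7% (1000 bp) under the other alternatives named above. Of 17 pooled promoter summits of the members, 13 were matched in both replicates within 50 bp, 14 within 100 bp and 16 within 250 bp. No paired analysis was possible because the series has 1 group. Unknown depth and 2 replicates limit every order of ranks given.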
